A study of Mus musculus with 6 samples.

Results

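Transcripts for metallothionein, hepcidin and the handling of iron were followed in mouse liver, as 10 genes named by symbol: Mt1, Mt2, Hamp, Slc39a14, Tfr2, Tfrc, Slc40a1, Fth1, Ftl1 and Cp. All 10 were listed in each of the 6 libraries, out of 18253 gene symbols listed in at least 1. The livers came from C57BL/6 mice labelled postnatal day 21, and every animal had received alpha-naphthylisothiocyanate (ANIT), which injures the cells lining bile ducts and causes cholestasis in rodents. The ANIT group held 3 libraries, and the celastrol group held 3 from mice also given celastrol, a plant triterpenoid, with treatment labelled as lasting 5 days. No untreated liver was analysed here, neither doses nor sex were stated in the labels, and nothing in the labels says that each library was a separate animal, so each p reflects the spread among these samples, which may be technical.

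Hepcidin, the product of Hamp, is a peptide hormone made by hepatocytes that binds the iron exporter ferroportin (Slc40a1) and causes its degradation. Its transcription is known to be raised by bone morphogenetic protein (BMP) signals through SMAD proteins and by interleukin 6 through STAT3. Iron regulatory proteins bind hairpins called iron-responsive elements, which restrain the translation of ferritin (Fth1, Ftl1) and ferroportin mRNA when they lie near the cap and protect transferrin receptor 1 (Tfrc) mRNA from decay when they lie in its 3' end. Metallothioneins are small cysteine-rich proteins that hold zinc and copper, and their genes are known to be switched on by the zinc-sensing factor MTF1 and by glucocorticoids.

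Regulatory sequences of 3 kinds that belong to those controls are shown for some of the 10 genes. Tfr2 and Cp had no match of any kind, and Slc39a14 had no hairpin. A match of letters alone does not show that a site is used. The hairpins were searched in the untranslated regions of GENCODE M21 transcripts (GRCm38, the same build as mm10) as CNNNNNCAGTGN followed by 5 bases that pair with the first 5 N, with G-T pairs allowed. Fth1, Ftl1 and Slc40a1 each held 1 match in the 5' region, as did 31 of 21877 genes in all (0.14%). Tfrc held 4 matches in its 3' region, where 129 genes (0.59%) had at least 1, and it was the 1 gene with 3 or more. Capitals mark the loop, each stretch is 30 bases, and coordinates with strand stand after the name.
Fth1 5' element, chr19:9982732-9982761, plus strand: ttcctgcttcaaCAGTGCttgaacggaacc
Ftl1 5' element, chr7:45459778-45459807, minus strand: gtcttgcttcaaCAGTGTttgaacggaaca
Slc40a1 5' element, chr1:45925464-45925493, minus strand: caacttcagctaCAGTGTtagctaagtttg
Tfrc 3' element, chr16:32631219-32631248, plus strand: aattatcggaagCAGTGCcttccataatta
Tfrc 3' element, chr16:32631598-32631627, plus strand: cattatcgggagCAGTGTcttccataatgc
Tfrc 3' element, chr16:32631663-32631692, plus strand: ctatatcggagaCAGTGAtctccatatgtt
Tfrc 3' element, chr16:32631710-32631739, plus strand: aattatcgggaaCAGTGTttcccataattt

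Metal response elements, the sites read by MTF1, were searched as TGCACNC and TGCGCNC on both strands of RefSeq start windows (250 bases before to 50 after a start, GRCm38.p6). Mt1 had 3 matches and Mt2 had 4. At least 1 match was found in 25.7% of 32851 windows, at least 3 in 1.97% and at least 4 in 0.52%. Tfrc had 2 overlapping matches in 1 of its 2 windows, Hamp, Tfr2, Fth1, Ftl1 and Cp had none, and no window was given for Slc40a1 or Slc39a14. Capitals mark the matches in the metallothionein genes.
Mt1, chr8:94179058-94179087, plus strand: tcccgctgTGCACACtggcgctccagggag
Mt1, chr8:94179089-94179118, plus strand: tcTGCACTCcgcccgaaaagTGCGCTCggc
Mt2, chr8:94172387-94172416, plus strand: atcgcctcTGCACCCggcccctcgggcccc
Mt2, chr8:94172482-94172511, plus strand: agacccttTGCGCTCagctcctttgctctc
Mt2, chr8:94172560-94172589, plus strand: gggagggcGTGTGCAggctctgtcccacga
Mt2, chr8:94172618-94172647, plus strand: ggtcGTGCGCAggcccaggggcgtgtgctg

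Hamp has a near copy on the same chromosome, Hamp2, and their start windows were 91.1% identical over 300 bases. A BMP-type site was searched as GGCGCC and a STAT-type site as TTCNNNGAA, on both strands. Hamp held 1 of each, and Hamp2 held the STAT-type letters and no GGCGCC. In all windows GGCGCC was found in 11.87% and TTCNNNGAA in 8.3%. The 60 bases that hold these sites are shown for both genes, with the matches in capitals.
Hamp, chr7:30944100-30944159, minus strand: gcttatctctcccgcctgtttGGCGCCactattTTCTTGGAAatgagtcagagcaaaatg
Hamp2, chr7:30924252-30924311, minus strand: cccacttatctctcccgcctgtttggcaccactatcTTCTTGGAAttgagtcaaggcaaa

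Levels are given as FPKM, which counts sequenced fragments relative to gene length and library size. The gene lengths used are not stated, so comparisons of level between genes, such as ratios and rank orders, are approximate. Depth, estimated from the spacing of low values, was such that 1 FPKM over a gene of 1 kilobase corresponds to 19.1 to 20.2 reads in each library. Differences are log2 changes, celastrol over ANIT on log2(FPKM + 1), and a gene passed when its Benjamini-Hochberg adjusted p from limma was under 0.05 over all 10593 genes tested. Of those genes 467 rose (4.41%) and 2185 fell (20.6%), and the median log2 fold change was -0.17. Counts at an unadjusted p under 0.05, where given below, stand without a share of all genes at that threshold. Median-ratio scaling gave a median of -0.02 with 800 genes higher and 1163 lower, and quantile normalization gave 0.01 with 873 and 952. The hepatocyte transcript Alb fell from 29351 to 38656 FPKM down to 5341 to 10051 FPKM (limma adjusted p = 0.00239). Cyp2e1, another hepatocyte transcript, rose from 678 ± 145 to 2135 ± 632 FPKM (SD, n = 3 libraries each, limma adjusted p = 0.00541), and the other 6 of 8 hepatocyte markers did not pass. In bulk liver a smaller number of cells of a type and less RNA per cell cannot be told apart.

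All 10 genes entered the test, and 5 passed. Mt1 and Slc39a14 rose and Ftl1, Fth1 and Slc40a1 fell, against 25% of all tested genes passing in either direction. Libraries of the groups did not overlap for 8 of the 10 (5 higher, 3 lower), where 44.9% of all genes did not overlap (8.35% higher and 36.6% lower). After median-ratio scaling 8 of the 10 passed, 5 higher (Mt2, Hamp and Tfr2 in addition) and the same 3 lower, and each of the 10 kept its direction under all 15 other settings in which it was tested (Tfrc under 14). With 1 library left out the number passing was 2 without ANIT replicate 2 or celastrol replicate 1, 3 without ANIT replicate 3, and 4 to 6 without each of the others.

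**Figure D1:**
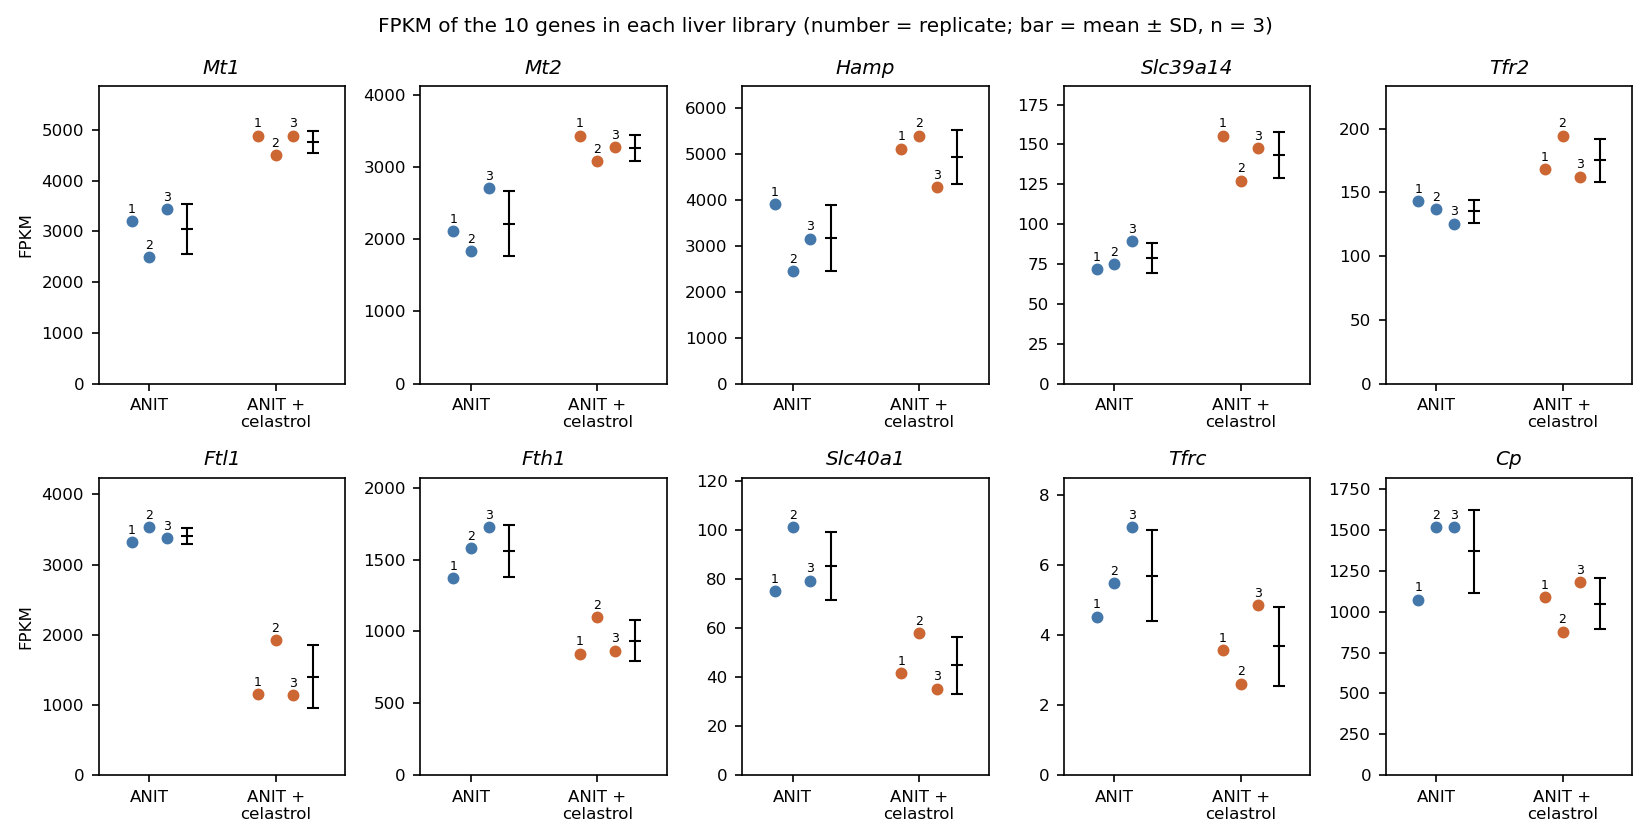
FPKM of the 10 genes in each library (y axis, linear from 0), with the replicate number above each point and the mean ± SD (n = 3) beside each group. The groups overlap in the panels of Tfrc and Cp and in no other, and celastrol replicate 2 lies nearest to the ANIT group for Ftl1, Fth1 and Slc40a1.

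Metallothionein transcripts were among the most abundant in the liver and were higher with celastrol. Mt1 (chromosome 8, positions 94179082 to 94180327) stood at 3203, 2495 and 3432 FPKM in ANIT replicates 1, 2 and 3 and at 4885, 4499 and 4886 FPKM in celastrol replicates 1, 2 and 3. Every celastrol library lay above every ANIT library, and the celastrol libraries lay closer together, with a coefficient of variation of 4.68% against 16.1%. Mt1 rose 1.56-fold, from 3043 ± 489 to 4757 ± 223 FPKM (SD, n = 3 libraries each), a log2 change of 0.66 (SE 0.18, limma adjusted p = 0.0359). Mt1 stood close to the threshold. Its call was lost without ANIT replicate 1, 2 or 3 (adjusted p of 0.0881, 0.151 and 0.0643), without celastrol replicates 1 or 3 (0.122 and 0.0832), after quantile normalization (0.19, with a log2 change of 0.32), when rescaled to TPM (0.0516), without the filter on low values (0.0662) and with the replicate number as a block (0.0542).

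Mt2, which encodes the other major liver metallothionein and lies 5513 bases from Mt1, had the same order of groups. It measured 2117, 1832 and 2707 FPKM under ANIT alone and 3437, 3087 and 3277 FPKM when celastrol was added. The groups did not overlap, and ANIT replicate 2 and celastrol replicate 2 were the lowest of their groups for both genes. The log2 change of 0.58 (95% interval 0.14 to 1.02) missed the threshold (limma adjusted p = 0.0608) and cleared it after median-ratio scaling (0.0433) and without celastrol replicate 2 (0.0423), among other settings. The ratio of Mt1 to Mt2 within a library lay between 1.27 and 1.51 with ANIT and between 1.42 and 1.49 with celastrol. The coding sequences of the pair are 79.2% identical, so the split of reads between them is uncertain. Mt3 and Mt4, family members typical of brain and squamous epithelium, reached at most 0.49 and 0.87 FPKM in any library.

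Other genes of zinc and copper were listed apart from the members, so that the list leaves out the zinc carrier Slc39a14, which rose and is described with iron uptake. Of the 15 tested genes of zinc sensing and transport on it none rose and 3 fell by limma. Of all tested genes 4.41% rose and 20.6% fell. At an unadjusted p under 0.05 none of the 15 rose and 5 fell. The median log2 fold change of the list was -0.19, near that of all genes. The genes that fell were Slc30a9, from 22.1 ± 1.36 to 13.3 ± 1.41 FPKM (SD, n = 3 libraries each, limma adjusted p = 0.0057), Slc39a4, a zinc importer (adjusted p = 0.0125), and Slc39a11 (adjusted p = 0.0126). The calls of Slc39a4 and Slc39a11 were lost after quantile normalization (adjusted p of 0.0707 and 0.0657), after which 1 gene of the list rose and 1 fell.

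Mtf1 itself measured 2.46 ± 0.0586 FPKM with ANIT and 2.19 ± 0.05 FPKM with celastrol (SD, n = 3 libraries each) and did not pass, with a log2 change of -0.12 (95% interval -0.32 to 0.09, limma adjusted p = 0.367) that became 0.01 after median-ratio scaling. Slc30a1, a zinc exporter known as an MTF1 target, did not pass either, with a log2 change of -0.29 (95% interval -0.58 to 0.01, limma adjusted p = 0.13). Among 9 tested copper genes 1 fell, the copper chaperone Atox1, from 196 ± 11.7 to 120 ± 3.55 FPKM (SD, n = 3 libraries each), with a log2 change of -0.71 (limma adjusted p = 0.00699). None of the 9 rose, and at an unadjusted p under 0.05 1 was higher and 2 were lower. By limma 4.41% of all tested genes rose and 20.6% fell. After median-ratio scaling 1 copper gene rose, after quantile normalization 2 did, and without celastrol replicate 2 1 rose and 2 fell. None of 10 glucocorticoid targets passed limma in either direction or had an unadjusted p under 0.05. After rescaling to TPM 1 of them fell, and 1 rose without celastrol replicate 2.

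Hepcidin transcripts were higher with celastrol in every library, and the copy Hamp2 passed the test where Hamp did not. Hamp (chromosome 7, positions 30942368 to 30944032) stood at 3898, 2452 and 3154 FPKM under ANIT alone and at 5112, 5395 and 4271 FPKM when celastrol was added. The highest ANIT library, replicate 1, lay below the lowest celastrol library, replicate 3. The group means were 3168 ± 723 and 4926 ± 585 FPKM (SD, n = 3 libraries each), and the log2 change of 0.66 (95% interval 0.15 to 1.16) had a limma adjusted p of 0.0619. It passed after median-ratio scaling (adjusted p = 0.0328), when the 20 most abundant genes were dropped (0.0376) and with genes of at least 5 FPKM only (0.0492).

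Hamp2, whose peptide in mice is not known to act on iron as that of Hamp does, measured 195, 152 and 150 FPKM under ANIT alone and 317, 430 and 305 FPKM when celastrol was added. Hamp2 rose by a log2 change of 1.07 (SE 0.19, limma adjusted p = 0.00735) and passed under all 15 other settings. The ratio of Hamp to Hamp2 was 19.9, 16.1 and 21.0 in ANIT replicates 1, 2 and 3 and 16.1, 12.5 and 13.99 in celastrol replicates 1, 2 and 3. The coding sequences of the pair are 93.6% identical over 249 bases, and both overlap the noncoding gene Gm44662 on the opposite strand, so part of the signal of 1 gene could have been counted for the other.

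Transferrin receptor 2, which Tfr2 encodes and which takes part in iron sensing upstream of hepcidin, had 143, 137 and 125 FPKM under ANIT alone and 168, 195 and 162 FPKM when celastrol was added. The groups did not overlap. The log2 change of 0.37 (95% interval 0.06 to 0.68) missed the threshold (limma adjusted p = 0.0781) and cleared it after median-ratio scaling (0.00913) and quantile normalization (0.0095).

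In the BMP and SMAD arm of hepcidin control 1 of 19 tested genes rose and 5 fell, shares near those of all tested genes (4.41% higher and 20.6% lower), and the list median was -0.14 against -0.17 for all genes (0.01 against -0.02 after median-ratio scaling, with 3 falls). Id1, a direct target of BMP signals, fell from 53.3, 29.7 and 22.7 FPKM to 9.49, 8.46 and 7.86 FPKM, with a log2 change of -1.83 (SE 0.29, limma adjusted p = 0.00685). Smad7, an inhibitor of the pathway that is also one of its targets, fell by 0.82 on the log2 scale (limma adjusted p = 0.0231). Furin, a protease that processes hemojuvelin, fell from 99.9 ± 8.28 to 57.8 ± 2.31 FPKM (SD, n = 3 libraries each, limma adjusted p = 0.00531). Atoh8, a factor reported to respond to BMP signals, rose from 8.8 ± 0.545 to 15.2 ± 0.426 FPKM (SD, n = 3 libraries each, limma adjusted p = 0.00233). Id1, Furin and Atoh8 passed under every other setting in which they were tested, and the number of falls was 2 once ANIT replicate 1, ANIT replicate 2, celastrol replicate 1 or celastrol replicate 3 was dropped.

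Hjv, the hemojuvelin co-receptor listed under its older symbol Hfe2, and Smad1, which carries the signal to the nucleus, made up the 5. Hfe2 measured 68.0 ± 14.4 and 42.5 ± 7.02 FPKM (SD, n = 3 libraries each, limma adjusted p = 0.0449). Its call was lost after median-ratio scaling (0.168) and quantile normalization (0.296) and without any library but ANIT replicate 3. That of Smad1 (limma adjusted p = 0.0426) was lost under the same scalings (0.283 and 0.436) and without any 1 library. Smad7 did not pass once ANIT replicate 1, ANIT replicate 2, celastrol replicate 1 or celastrol replicate 3 was dropped (adjusted p from 0.0519 to 0.0861). Bmp6, the ligand made by liver endothelium, stayed between 0.5 and 1.03 FPKM in every library, below the filter, and Tmprss6, the protease that restrains hepcidin, did not pass (limma adjusted p = 0.551).

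In the interleukin 6 arm 2 of 11 tested genes rose and 2 fell, against 4.41% and 20.6% of all tested genes. The list median was 0.08 (-0.04 when rescaled to TPM, -0.07 without ANIT replicate 2 and -0.08 without celastrol replicate 3). Stat3 rose from 40.6 ± 3.87 to 58.7 ± 1.99 FPKM (SD, n = 3 libraries each), a log2 change of 0.53 (limma adjusted p = 0.0182). Cebpa, a hepatocyte factor needed for Hamp transcription in mice, rose by 0.94 on that scale (limma adjusted p = 0.0122). Il22ra1, a receptor subunit for interleukin 22, fell from 11.2 ± 3.67 to 3.17 ± 0.273 FPKM (SD, n = 3 libraries each, limma adjusted p = 0.00321). Il6ra fell from 20.7 ± 1.37 to 15.4 ± 2.06 FPKM (SD, n = 3 libraries each, limma adjusted p = 0.0492), a call lost in 10 of 15 other settings. The Stat3 call was lost once ANIT replicate 2, ANIT replicate 3 or celastrol replicate 1 was dropped (adjusted p of 0.0908, 0.0502 and 0.0718). Of 7 tested neutrophil markers 4 rose (Ngp, S100a8, Ly6g and S100a9) and 3 did not pass. Ngp reached the filter through the celastrol libraries alone, with at most 0.4 FPKM under ANIT. It was not tested once a celastrol library was dropped. Without celastrol replicate 1 or 3 none of the 6 neutrophil markers then tested passed. All 10 listed neutrophil markers, tested or not, summed to 34.2 to 59.4 FPKM with ANIT and 72.0 to 99.3 FPKM with celastrol. The calls of Ly6g and S100a9 were lost without ANIT replicate 1 or 3 and without celastrol replicate 1 or 3, that of S100a9 also without celastrol replicate 2 (0.0574 to 0.112 in all), and that of S100a8 without ANIT replicate 3 or celastrol replicate 1 or 3. The part of neutrophils in the result was not tested. Of the other markers, Stab2 of liver endothelium rose among 8 tested and Krt19 of bile duct cells fell among 3 tested. Neither of them passed without celastrol replicate 1. Krt19 reached the filter through the ANIT libraries alone, with at most 0.78 FPKM under celastrol, and was not tested once an ANIT library was dropped. No proliferation marker reached the filter.

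**Figure D2:**
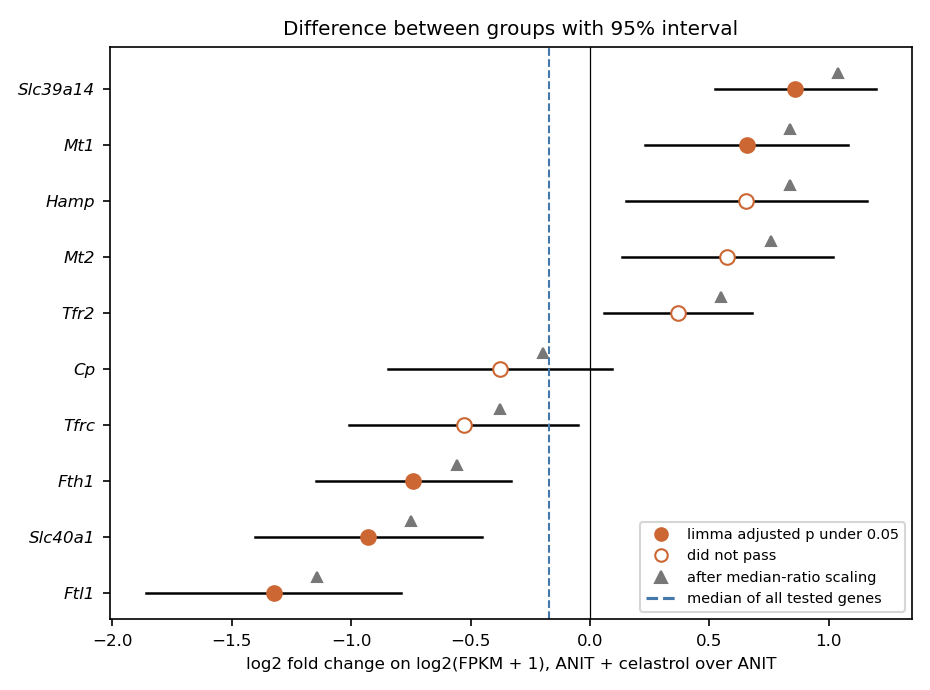
Log2 fold change of each gene (x axis, celastrol over ANIT on log2(FPKM + 1)) with its 95% interval, filled where limma passed, and the value after median-ratio scaling as a triangle. Slc39a14 at 0.86 and Ftl1 at -1.32 mark the ends, and all 5 genes above 0 and all 5 below it keep their side after scaling.

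Both ferritin transcripts fell, and the ratio of light to heavy chain was lower in every celastrol library. Ftl1, which encodes the light chain that helps the iron core form (chromosome 7, positions 45457944 to 45459884), stood at 3324, 3534 and 3372 FPKM under ANIT alone and at 1157, 1921 and 1135 FPKM when celastrol was added. The ANIT libraries lay close together, celastrol replicate 2 lay above the other celastrol libraries, and the groups did not overlap. The change from 3410 ± 110 to 1404 ± 448 FPKM (SD, n = 3 libraries each) is a log2 change of -1.32 (SE 0.23, limma adjusted p = 0.00735), and it passed under all 15 other settings (adjusted p from 0.000668 to 0.0374).

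Fth1, which encodes the heavy chain with the ferroxidase activity (chromosome 19, positions 9980598 to 9985098), had 1369, 1579 and 1727 FPKM under ANIT alone and 844, 1099 and 865 FPKM when celastrol was added. The lowest ANIT library lay above the highest celastrol library. Fth1 fell from 1558 ± 180 to 936 ± 141 FPKM (SD, n = 3 libraries each), a log2 change of -0.74 (SE 0.18, limma adjusted p = 0.0212), and it did not pass once ANIT replicate 2, ANIT replicate 3, celastrol replicate 1 or celastrol replicate 3 was dropped (adjusted p of 0.0851, 0.0773, 0.0905 and 0.0581). The ratio of Ftl1 to Fth1 was 2.43, 2.24 and 1.95 in ANIT replicates 1, 2 and 3 and 1.37, 1.75 and 1.31 in celastrol replicates 1, 2 and 3, so the groups did not overlap in that ratio either. Processed copies of ferritin genes are common in mammals, and they were searched here by pseudogene names only. The 3 Ftl copies so found in GENCODE M21 (Ftl1-ps1, annotated as protein-coding, Ftl1-ps2 and Ftl2-ps) were not listed in any library. Whether their reads were counted for Ftl1 was not tested.

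Ferroportin transcripts fell as well. Slc40a1 (chromosome 1, positions 45908068 to 45926523), whose product is the only known iron exporter of mammalian cells, had 75.1, 101 and 79.2 FPKM under ANIT alone and 41.6, 57.7 and 35.2 FPKM when celastrol was added. The highest celastrol library, replicate 2, lay below the lowest ANIT library, replicate 1. Slc40a1 fell from 85.1 ± 13.98 to 44.8 ± 11.6 FPKM (SD, n = 3 libraries each), a log2 change of -0.93 (SE 0.20, limma adjusted p = 0.0166), and its call was lost without ANIT replicate 2 (0.0676) or celastrol replicate 1 (0.0665). Liver macrophages also express Slc40a1. None of 12 macrophage markers passed limma. At an unadjusted p under 0.05, for which no share of all genes is given, 5 were higher and none lower. After median-ratio scaling 2 of them rose, as did 800 of all 10575 genes tested. Quantile normalization gave 4 rises, against 873 of 10593 genes, and 4 rose without ANIT replicate 3, against 312 of 10407 genes. The summed level of the macrophage markers was 168 to 353 FPKM with ANIT and 305 to 424 FPKM with celastrol. The 3 members that fell by limma are those with an iron-responsive element in the 5' region, shown above. Tfrc and Cp also had negative log2 changes, without passing. The part of the element in these values was not tested.

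**Figure D3:**
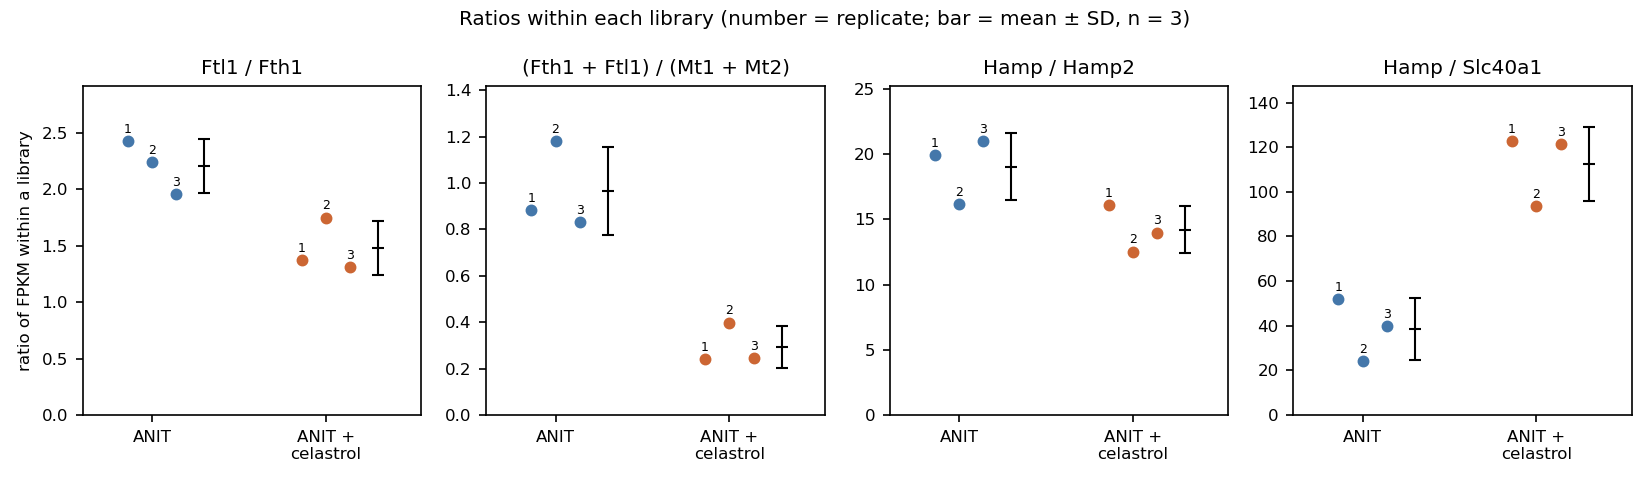
Ratios of FPKM within each library (y axes, linear from 0) for the ferritin chains, for ferritin to metallothionein, for Hamp to its copy and for Hamp to Slc40a1, with replicate numbers and the mean ± SD (n = 3). Ferritin to metallothionein lies between 0.831 and 1.18 with ANIT and between 0.24 and 0.398 with celastrol, and Hamp to Slc40a1 lies between 24.2 and 51.9 and between 93.5 and 123.

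The ratio of ferritin to metallothionein within a library did not overlap between the groups, and ferritin exceeded metallothionein in ANIT replicate 2 alone. Which gene stands higher within a library depends on the gene lengths used for FPKM, which are not stated. Together Fth1 and Ftl1 had 0.831 to 1.18 times the summed FPKM of Mt1 and Mt2 in the ANIT libraries and 0.24 to 0.398 times in the celastrol libraries. Ftl1 ranked 19th to 24th among all symbols with ANIT and 47th to 69th with celastrol, and Hamp ranked 20th to 31st and 18th to 23rd. By group mean the order with ANIT was Ftl1, Hamp, Mt1, Mt2, Fth1, Cp, Tfr2, Slc40a1, Slc39a14 and Tfrc, where Ftl1 overlapped Hamp, Hamp overlapped Mt1, Mt1 overlapped Mt2, Fth1 overlapped Cp, and Slc40a1 overlapped Slc39a14. With celastrol it was Hamp, Mt1, Mt2, Ftl1, Cp, Fth1, Tfr2, Slc39a14, Slc40a1 and Tfrc, where Hamp overlapped Mt1, Ftl1 overlapped Cp, and Cp overlapped Fth1. The 10 genes took 2.58% to 2.97% of the FPKM sum with ANIT and 2.74% to 2.94% with celastrol.

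Of the iron uptake genes Slc39a14 rose and Tfrc did not pass. Slc39a14 encodes ZIP14, a carrier that takes up iron not bound to transferrin, zinc and manganese, and lies on chromosome 14 (positions 70303469 to 70351425). It stood at 71.9, 74.8 and 89.3 FPKM under ANIT alone and at 156, 127 and 148 FPKM when celastrol was added. The groups were far apart relative to their spread. Slc39a14 rose 1.82-fold, from 78.7 ± 9.32 to 143 ± 14.6 FPKM (SD, n = 3 libraries each), a log2 change of 0.86 (SE 0.14, limma adjusted p = 0.00667), and passed under all 15 other settings (adjusted p from 0.00337 to 0.0384).

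Transferrin receptor 1, the main receptor for transferrin-bound iron in dividing and erythroid cells, was scarce in these livers. Tfrc measured 4.53, 5.48 and 7.09 FPKM under ANIT alone and 3.57, 2.61 and 4.85 FPKM when celastrol was added. Celastrol replicate 3 lay above ANIT replicate 1, so the groups overlapped. The log2 change of -0.53 (95% interval -1.01 to -0.05) missed the threshold (limma adjusted p = 0.0981) and cleared it without celastrol replicate 3 (0.046), with the replicate number as a block (0.0364) and when rescaled to TPM (0.046). Of 13 erythroid markers 12 were listed and 6 tested, with a summed level of 231 to 430 FPKM with ANIT and 52.4 to 230 FPKM with celastrol. The globin genes made up most of that sum and did not pass (limma adjusted p from 0.0541 to 0.156). When celastrol replicate 2 was dropped 4 of the 6 markers fell, as did 3334 of all 10433 genes then tested. With the replicate number as a block 3 of the 6 fell, as did 2106 of all 10593 genes. Klf1 rose, and Slc4a1, Gata1 and Rhag stayed at or below 0.05 FPKM. The part of blood cells in the Tfrc values was not tested.

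Ceruloplasmin, the copper-bearing plasma ferroxidase encoded by Cp, had 1075, 1519 and 1517 FPKM under ANIT alone and 1090, 879 and 1180 FPKM when celastrol was added. ANIT replicate 1 lay among the celastrol libraries. The log2 fold change was -0.38 (95% interval -0.85 to 0.09, limma adjusted p = 0.202), and Cp passed in none of the 15 other settings (adjusted p from 0.0867 to 0.581). Cp shares 13201 bases of its span with Hps3 on the opposite strand, which measured 2.53 ± 0.409 and 2.67 ± 0.371 FPKM (SD, n = 3 libraries each). Transferrin (Trf), the plasma iron carrier, ranged from 7990 to 14848 FPKM with ANIT and from 8655 to 11403 FPKM with celastrol and did not pass, with a log2 change of -0.13 (95% interval -0.73 to 0.48) that was 0.05 after median-ratio scaling and 0.09 without ANIT replicate 3.

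Other genes of iron entry, storage and release passed in both directions. Of 21 tested, 2 rose and 4 fell, against 4.41% and 20.6% of all tested genes. The list median was -0.09 (0.08 after median-ratio scaling, with 3 higher and 3 lower). Slc48a1, a heme transporter of endosomes, fell from 39.6 ± 2.42 to 15.9 ± 1.57 FPKM (SD, n = 3 libraries each), a log2 change of -1.27 (limma adjusted p = 0.000832). Slc25a37 (mitoferrin 1), which carries iron into mitochondria, fell from 17.2 ± 1.46 to 6.00 ± 1.69 FPKM (SD, n = 3 libraries each, limma adjusted p = 0.00194). Steap3, the endosomal ferrireductase, fell by 0.92 on the log2 scale (limma adjusted p = 0.015), and the iron chaperone Pcbp1 by 0.46 (limma adjusted p = 0.0338). Hp, which encodes haptoglobin and is an acute phase gene, rose from 10640 ± 98.3 to 19300 ± 3672 FPKM (SD, n = 3 libraries each, limma adjusted p = 0.0244). Lrp1, the receptor for the heme-hemopexin complex, rose by 0.63 (limma adjusted p = 0.016).

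The calls of Slc48a1 and Slc25a37 held in every other setting. Those of Hp and Pcbp1 were lost without any 1 library other than celastrol replicate 2 and under quantile normalization (0.0683 to 0.496 for Hp, and from 0.0553 to 0.131 for Pcbp1 over these and further settings). Steap3 did not pass once ANIT replicate 1, ANIT replicate 2 or celastrol replicate 1 was dropped (adjusted p from 0.0506 to 0.055), nor Lrp1 once ANIT replicate 2, ANIT replicate 3 or celastrol replicate 1 was dropped (0.0587 to 0.0718). Without celastrol replicate 2 the list had 4 rises and 6 falls.

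The pair of iron regulatory proteins differed in direction. Ireb2 (IRP2) rose from 10.5, 11.2 and 10.04 FPKM to 13.2, 15.2 and 13.5 FPKM, a log2 change of 0.37 (SE 0.10, limma adjusted p = 0.0329). Aco1 (IRP1, an aconitase when it holds an iron-sulfur cluster) fell from 55.5, 61.1 and 60.8 FPKM to 31.5, 45.9 and 36.5 FPKM, a log2 change of -0.64 (SE 0.16, limma adjusted p = 0.0224). Neither pair of groups overlapped. Both calls were lost when any library but celastrol replicate 2 was left out (adjusted p from 0.0684 to 0.101 for Ireb2 and from 0.051 to 0.0867 for Aco1). The Aco1 call was also lost after quantile normalization (0.0762), and that of Ireb2 when rescaled to TPM (0.101) and without the filter (0.0567).

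By limma 4.41% of all tested genes rose and 20.6% fell. Of the 10 tested genes of iron regulatory proteins and oxygen sensing 1 rose and 3 fell, with a median of -0.22. The other falls were Hif1a, the hypoxia-inducible factor subunit, with a log2 change of -0.42 (limma adjusted p = 0.0146), and Egln1, a prolyl hydroxylase that marks it for decay, with one of -0.47 (limma adjusted p = 0.0191). Neither passed after median-ratio scaling (0.104 and 0.0817) or quantile normalization (0.167 and 0.121), where the list had 1 rise and 1 fall, and 2 rises and no fall, respectively. Without celastrol replicate 1 no gene of the list passed. Hif1a did not pass without ANIT replicate 2 or celastrol replicate 1, nor Egln1 without ANIT replicate 1 or celastrol replicate 1 or 3.

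Hmox1, the inducible heme oxygenase that frees iron from heme, fell from 45.2, 71.6 and 54.7 FPKM to 16.3, 17.5 and 17.4 FPKM, a log2 change of -1.66 (SE 0.17, limma adjusted p = 0.00116). It passed under all 15 other settings, and the groups did not overlap.

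Hmox1, both ferritin chains and Slc40a1 are also known as targets of Nrf2, the factor that governs the antioxidant response. Of 19 tested Nrf2 targets 14 fell and none rose by limma, where 20.6% of all tested genes fell and 4.41% rose. The 14 include Hmox1 and Nfe2l2, which encodes Nrf2. At an unadjusted p under 0.05 17 of the targets were lower and none higher. The list median was -1.25, and between -0.97 and -1.39 under the other scalings. Srxn1, which repairs oxidized peroxiredoxins, had a log2 change of -2.94 (limma adjusted p = 0.000202), Gsr, glutathione reductase, one of -1.30 (0.000493), and Abcc3, a basolateral efflux pump, one of -1.25 (0.000948). The 3 iron members that fell lay between -0.74 and -1.32, and this list holds no metallothionein, although Mt1 and Mt2 are known to respond to Nrf2 in mice. The part of Nrf2 in the values of the members was not tested.

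**Figure D4:**
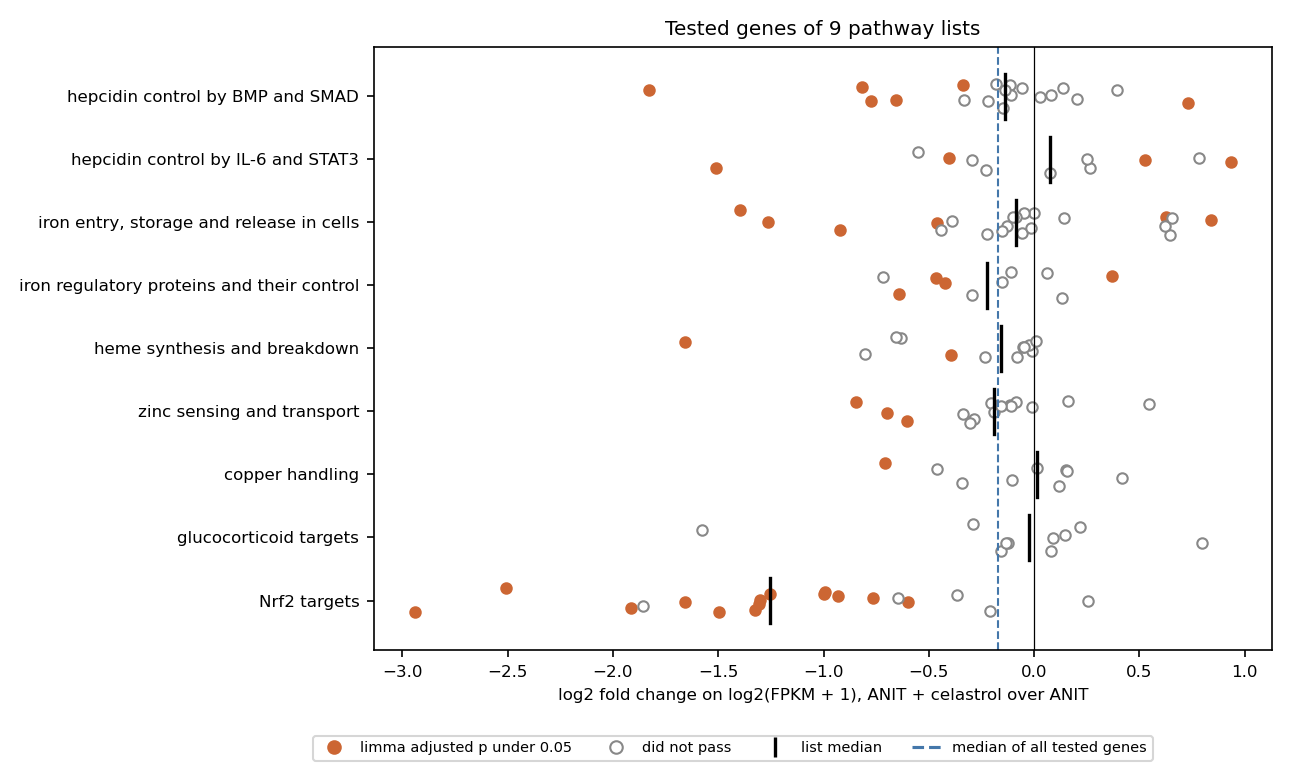
Log2 fold change (x axis, celastrol over ANIT on log2(FPKM + 1)) of every tested gene of the 9 pathway lists, filled where limma passed, with each list's median as a black bar and the median of all tested genes as a dashed line at -0.17. The median of Nrf2 targets lies at -1.25, and those of the other lists lie between -0.22 and 0.08.

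The genes whose levels were most like those of Mt1 and of Hamp were sought among 6280 genes with a mean of at least 5 FPKM, by Pearson's r of log2(FPKM + 1) over the 6 libraries. These 6 points fall into the 2 groups and share their libraries, so r carries the group difference and is given as a description. For Mt1 the closest were Serpina1e (r = 0.989), Arhgef18 (0.974), Rdh5 (0.972), Mt2 (0.971) and Enho (0.969). Serpina1e, a protease inhibitor of the alpha-1-antitrypsin family, rose from 1068 ± 465 to 3667 ± 751 FPKM (SD, n = 3 libraries each, limma adjusted p = 0.00867), and Enho, which encodes the peptide adropin, rose by 1.56 on the log2 scale (limma adjusted p = 0.00162). Rdh5, a retinol dehydrogenase, also rose (limma adjusted p = 0.00615), and Arhgef18 did not pass (0.219). For Hamp the closest were Hgfac (0.973), Masp2 (0.971), BC026585 (0.966), Pym1 (0.965) and Gna12 (0.961), of which Hgfac and Gna12 rose (limma adjusted p of 0.0201 and 0.0203). Both of these calls were lost once ANIT replicate 2, ANIT replicate 3 or celastrol replicate 1 was dropped. Mt1 stood 27th in likeness to Hamp (r = 0.89).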

How the data were processed

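RNA sequencing libraries of mouse liver, 3 per group by their titles, were analysed. The values the authors deposited are FPKM per gene symbol, per the file headers. HISAT2, featureCounts and build mm10 are named in the submitters' processing notes. Versions, annotation, gene lengths, strand setting and the step to FPKM are not stated in any source read, so overlapping and near-identical genes are uncertain. The smallest listed value was 0.01, and a symbol not listed counts as 0. Read depth was estimated from the steps between low values. No library was a copy of another (at most 0.67% identical values).

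The test took genes reaching 1 FPKM in 3 or more libraries, on log2(FPKM + 1), by limma 3.58.1 under R 4.3.3 (trend, robust variance, group as the only term). Changes on this scale understate those of low genes. The script was first tested on simulated data. The members, the pathway and marker lists and the tests were chosen with earlier results of these data known. Named genes are the members, Hamp2, Mt3, Mt4 and 8 regulators whatever their values, up to 3 called genes per direction of each list (all where 5 or fewer passed), and the 5 genes most like Mt1 and Hamp. Smad1, Pcbp1, Hps3 and single markers were named after their values were seen. Sequences are from RefSeq (GRCm38.p6) and GENCODE M21. Some results on heme and erythroid genes are not reported here.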

Additional observations from a re-analysis of the deposited data

How the results depend on the processing

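The 15 other settings were a pseudocount of 0.1, no filter, a mean of at least 5 FPKM, non-robust variance, a replicate block, 4 scalings and each library left out. Each of the 10 members kept its direction in all settings in which it was tested. The count of 2652 genes was 4189 as TPM, and 1117 to 3810 with 1 library left out. The 5 members passing became 8 after median-ratio scaling and 8 when the 20 most abundant genes were dropped, and 2 to 6 with 1 library left out. Members higher numbered 2, and 1 with no filter, with the replicate block or rescaled to TPM, 4 with a mean of at least 5 FPKM, 5 after median-ratio scaling or when the 20 most abundant genes were dropped, and 1 to 3 with 1 library left out. Members lower numbered 3, and 4 with the replicate block or rescaled to TPM, and 1 to 3 with 1 library left out. The cause was not tested. Values that changed sign, none of which had passed, were those of Mtf1 (0.011) and Trf (0.054) after median-ratio scaling. With 1 library left out Trf lay between -0.355 and 0.092 (above 0 without ANIT replicate 3) and Tmprss6 between -0.06 and 0.353 (below 0 without celastrol replicate 2).

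The replicate numbers gave no clear sign of pairing. Deviations from the group means correlated at 0.15, 0.23 and -0.09 for numbers 1, 2 and 3, and between -0.24 and 0.18 for unlike numbers. With 3 libraries a group these values cannot exclude pairing. With the number as a replicate block 2585 genes passed, Mt1 was lost (adjusted p = 0.0542) and Tfrc passed (0.0364). FPKM are shares of a library, so changes of abundant transcripts in either direction, such as the fall of Alb and the rise of Hp, bear on all other values. The 10 most abundant genes took 20.29% to 21.87% of the FPKM sum in the ANIT libraries. They took 33.19%, 20.7% and 31.49% in celastrol replicates 1, 2 and 3. Genes near 1 FPKM, such as Bmp6, rest on few reads. Differences under their intervals, or under that of Mtf1 at 2.14 to 2.5 FPKM, were not detectable with 3 libraries a group.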
